A study of Homo sapiens with 9 samples.

Results

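Expression of 10 transcription factor genes was followed in MDA-MB-231 breast cancer cells: the JUN family (JUN, JUNB and JUND), the FOS family (FOS, FOSB, FOSL1 and FOSL2), and EGR1, IER2 and MAFF. They were found by gene symbol in a table of read counts for 58884 genes, and all 10 were among the 13018 genes with enough counts to be tested. MDA-MB-231 is known as a claudin-low, triple-negative human breast cancer line, here called Par for its parental population. LM2 and BrM2 are sub-populations that were selected in mice from it for their capacity to colonize lung and brain, respectively. All were grown for 3 days in DMEM with 10% FBS (fetal bovine serum) and antibiotics, without host cells and with no stimulus named, and each gave 3 libraries from different passages. Each sub-population stands for a single selection from a single line, so the replicates measure the spread between passages of these cells and not between independent metastases. The question was whether these factors differ in mRNA level between Par and the metastatic sub-populations, and between the sub-populations.

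AP-1 is a dimer of basic leucine zipper (bZIP) proteins, usually a JUN protein with a FOS or another JUN protein, that binds short palindromic DNA sites and drives genes of proliferation, invasion and matrix breakdown. JUN, FOS, FOSB, JUNB, EGR1 and IER2 are immediate-early genes: growth factors, serum and stress switch on their transcription within minutes and without new protein synthesis, and many of their mRNAs are short-lived. FOSL1, also called FRA1, is the FOS family member best known from mesenchymal and triple-negative breast cancer cells. EGR1 is a zinc finger factor, IER2 a nuclear protein of the immediate-early class, and MAFF a small MAF protein that pairs with CNC-type bZIP factors.

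The promoters of the 4 members with the largest differences between lines are shown here, as the 250 bases before the RefSeq start of each gene in build GRCh38.p14, 5′ to 3′ on the strand of the gene. Capitals mark the matches to the motifs that were searched on either strand, and positions count back from the start of the gene.
EGR1 promoter (chr5:138465229-138465478, + strand): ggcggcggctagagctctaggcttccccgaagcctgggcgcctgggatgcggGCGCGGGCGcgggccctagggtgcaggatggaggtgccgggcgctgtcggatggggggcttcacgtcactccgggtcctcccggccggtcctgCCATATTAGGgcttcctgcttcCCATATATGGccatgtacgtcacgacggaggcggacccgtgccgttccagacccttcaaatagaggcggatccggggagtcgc
FOSB promoter (chr19:45467746-45467995, + strand): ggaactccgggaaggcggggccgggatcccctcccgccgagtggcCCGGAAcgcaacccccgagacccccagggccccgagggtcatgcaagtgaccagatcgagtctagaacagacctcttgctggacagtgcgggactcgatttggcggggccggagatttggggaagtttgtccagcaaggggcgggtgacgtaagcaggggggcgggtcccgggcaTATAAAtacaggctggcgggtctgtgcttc
JUNB promoter (chr19:12791236-12791485, + strand): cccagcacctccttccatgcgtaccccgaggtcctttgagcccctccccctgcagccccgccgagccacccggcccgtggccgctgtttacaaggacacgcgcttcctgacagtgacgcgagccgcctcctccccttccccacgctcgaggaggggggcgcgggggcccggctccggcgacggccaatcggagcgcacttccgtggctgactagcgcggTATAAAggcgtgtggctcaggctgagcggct
JUND promoter (chr19:18281623-18281872, - strand): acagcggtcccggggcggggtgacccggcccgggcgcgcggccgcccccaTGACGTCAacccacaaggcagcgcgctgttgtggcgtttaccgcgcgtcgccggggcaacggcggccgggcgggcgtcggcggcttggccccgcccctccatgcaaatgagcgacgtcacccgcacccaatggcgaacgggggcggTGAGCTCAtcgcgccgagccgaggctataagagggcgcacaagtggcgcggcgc
The EGR1 window held 2 CArG boxes, the motif of serum response factor, at -105 to -96 and at -83 to -74, and the EGR-type motif GCGNGGGCG at -198. CArG boxes were in 1.16% of all 35116 gene windows of this length and GCGNGGGCG in 8.41%. The FOSB window held the ETS core CCGGAA at -205 and a TATAAA at -30, and the JUNB window held a TATAAA at -31. TATAAA was in 10.7% of all windows and CCGGAA in 14.5%. The JUND window matched TGANNTCA, a loose form of the ATF-type AP-1 motif TGACGTCA, at -200 (TGACGTCA) and at -54 (TGAGCTCA). The loose form was in 10.1% of windows. Among the other members with a window, JUN at -67 and MAFF at -54 also held TGANNTCA, FOS held a TATAAA at -33 and IER2 a CCGGAA on the reverse strand at -26, whereas FOSL2 held none of the motifs. The shorter AP-1 motif TGANTCA, present in 6.57% of all windows, had no match in any member window. None of these matches overlapped another, and a match is a description of letters and not a measured binding site. Of the 10 members, 9 had a window, and FOSL1 had none.

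The libraries held between 14371858 counts (BrM2 replicate 1) and 24511786 counts (LM2 replicate 3). Libraries that carried the same number in different lines varied together around the mean of their line, at correlations of 0.23 to 0.90. Replicates 2 and 3 were not clearly told apart in this way. LM2 replicate 3 correlated with BrM2 replicates 2 and 3 at 0.80 and 0.75, and LM2 replicate 2 with the same libraries at 0.69 and 0.66. Pairs of these numbers thus rest on the labels. In edgeR's quasi-likelihood test 72.6% of the tested genes differed between replicate 1 and replicates 2 and 3. Each comparison is therefore given from the fit on the line alone and, where the call differs, also from the fit with the replicate number as a block. The epithelial markers summed to 1460 to 2710 CPM (counts scaled to a common, TMM-normalized library size) in Par, 732 to 1900 CPM in LM2 and 794 to 1730 CPM in BrM2. Most of this came from the keratins KRT8, KRT18, KRT7 and KRT19. The mesenchymal markers VIM, CD44, ZEB1 and FN1 summed to 2090 to 2490, 3230 to 3870 and 2240 to 2940 CPM. In BrM2 against Par VIM rose by 1.05 ± 0.23 on the log2 scale (edgeR adjusted p = 0.016). FN1 had a log2 fold change of -1.61 ± 0.17 there (edgeR adjusted p = 0.00041), and CD44 and ZEB1 did not pass. Of the markers of other cell types, the 3 of lung epithelium (SFTPC, SFTPB and SCGB1A1) were at or under 3 counts in every library, as were CD3E and CD68 of 4 leukocyte, DCN of 4 fibroblast and RBFOX3 of 3 neural and glial markers. The other markers of these lists were not all silent. In Par, LM2 and BrM2 the leukocyte list summed to 2.48 to 4.78, 1.57 to 3.08 and 1.19 to 3.24 CPM, mostly CD14, and the endothelial list to 3.10 to 7.39, 2.45 to 2.93 and 3.36 to 4.12 CPM, mostly PECAM1. The fibroblast list summed to 31.8 to 39.5, 39.9 to 64.7 and 10.7 to 21.9 CPM, from PDGFRB and COL1A1, and the neural and glial list to 175 to 193, 110 to 120 and 143 to 155 CPM, mostly MBP. CLDN3, CLDN4 and CLDN7, claudins that are low in claudin-low cells, summed to 84.8 to 122, 11.1 to 20.2 and 21.4 to 55.4 CPM, mostly CLDN4. ESR1, PGR and ERBB2 encode the receptors (ER, PR and HER2) for which triple-negative cancers are classed as negative. They summed to 88.9 to 143, 66.8 to 122 and 63.3 to 111 CPM, mostly ERBB2. The names claudin-low and triple-negative are background and do not come from these values. The part of all these markers in the results was not tested. In RNA from whole cultures, fewer cells that express a gene and less of its mRNA per cell cannot be told apart.

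The replicate number moved most members. Replicate 1 was higher than replicates 2 and 3 for 9 of the 10 members at an adjusted p under 0.05 in edgeR's quasi-likelihood test with line in the model, against 35.9% of all tested genes in that direction. The difference was between 0.52 (FOSL2) and 1.16 (JUND) on the log2 scale, and JUN, at 0.10 ± 0.21 (SE), was the member that did not pass. JUND lay at the percentile 98.3 of all tested genes for this difference, JUNB at 92.6, MAFF at 91.6 and FOSL1 at 89.4. The exons of the members held between 55.3% (EGR1) and 69.9% (JUND) G and C bases, against a median of 49.2% over the tested genes. The part of base composition in the replicate difference was not tested.

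**Figure D1:**
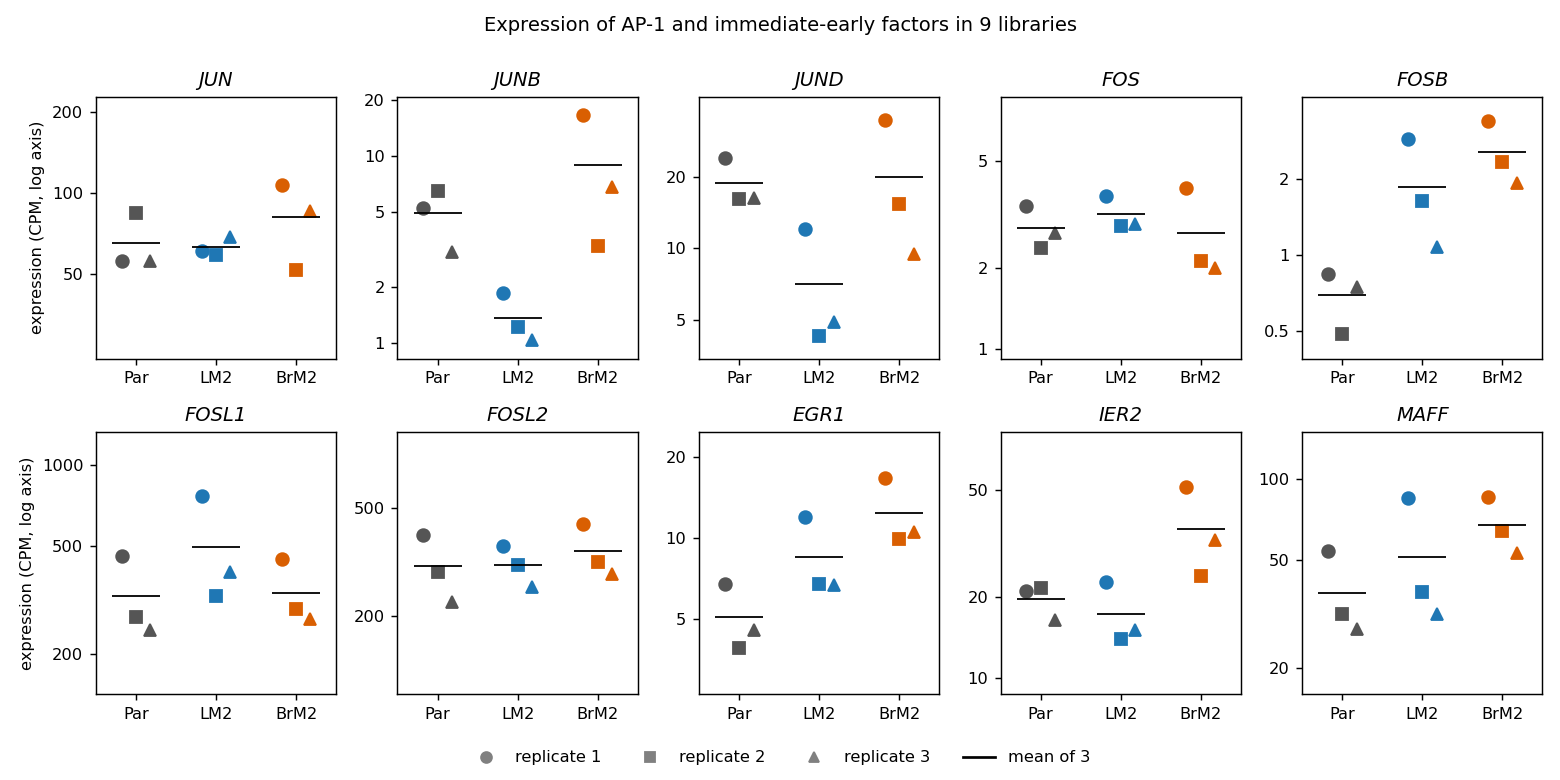
Expression of each member in the 9 libraries, in CPM on a log axis that differs between panels, with replicates 1, 2 and 3 as circles, squares and triangles and the mean of 3 as a line. JUNB in LM2 (1.03 to 1.84 CPM) lay below every Par and BrM2 library, EGR1 and FOSB in BrM2 lay above every Par library, and the circle of replicate 1 was the highest point in most panels.

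In LM2 against Par, 0 of the 10 members passed an adjusted p of 0.05 in edgeR's quasi-likelihood test, in a comparison where 8.67% of all tested genes passed. Of the members, 3 had an unadjusted p under 0.05 in edgeR, and DESeq2 without the block called 2, JUNB and FOSB (adjusted p = 0.019 and 0.03). With the replicate block 5 members passed (FOSB, FOSL1 and EGR1 higher, JUNB and JUND lower), beside 34.5% of all genes. In BrM2 against Par, 2 members passed, EGR1 and FOSB, both higher, beside 13.2% of all genes. With the block IER2 and MAFF passed too, which makes 4 members beside 42.7% of all genes. In BrM2 against LM2, 1 member passed, JUNB, which was higher in BrM2, beside 8.1% of all genes. With the block 6 members passed, beside 37.5% of all genes: JUNB, JUND, EGR1, IER2 and MAFF were higher and FOSL1 lower in BrM2. With 10 members these counts are not far from the share of all genes, and by themselves they set the members apart from no other genes. The median log2 fold change of the members was 0.09 in LM2 against Par, 0.58 in BrM2 against Par and 0.42 in BrM2 against LM2, beside 0.014, -0.02 and -0.029 for all tested genes. The libraries of the lines did not overlap for 3 members in LM2 against Par (JUNB, JUND and FOSB), 3 in BrM2 against Par (FOSB, EGR1 and IER2) and 2 in BrM2 against LM2 (JUNB and IER2), beside 25.1%, 31.3% and 23.2% of all tested genes. Both comparisons with Par rest on the same 3 Par libraries.

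**Figure D2:**
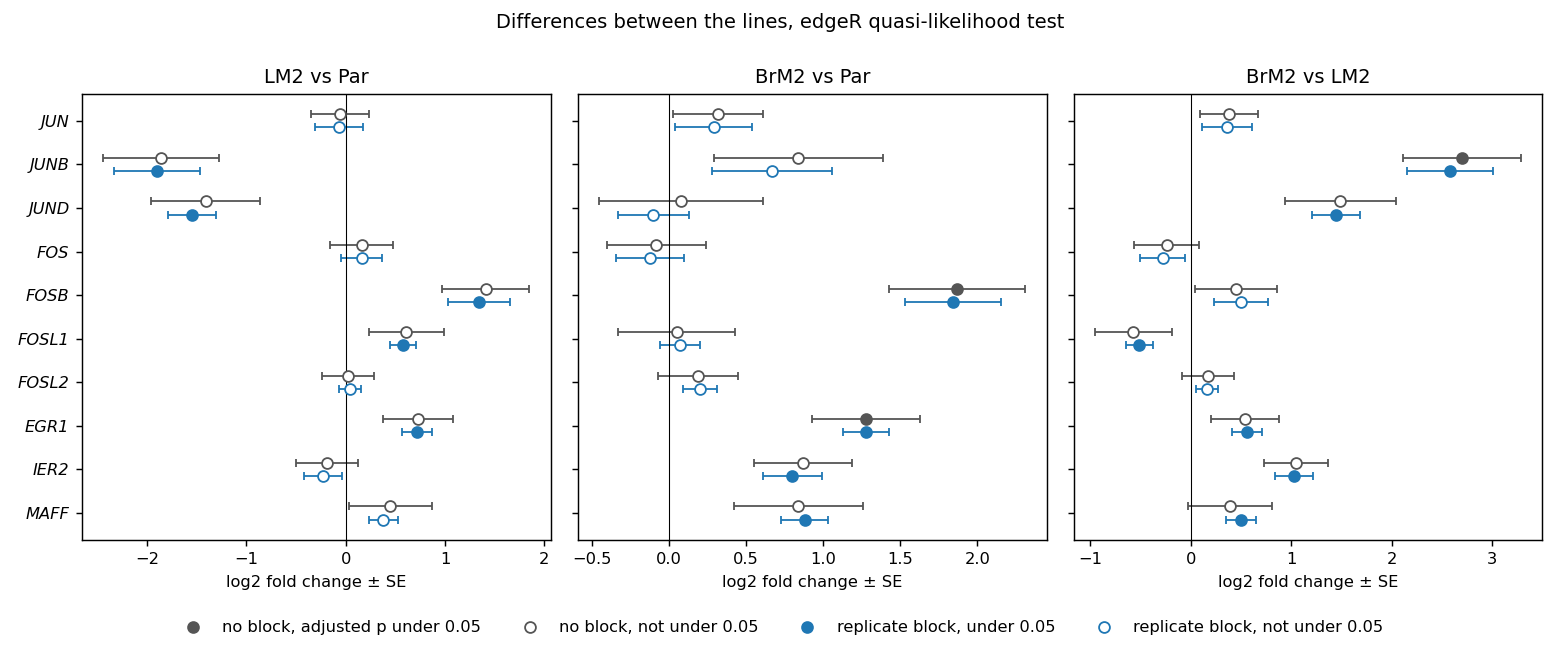
Log2 fold changes of the 10 members in the 3 comparisons with their standard errors, from edgeR on the line alone (grey) and with the replicate block (blue), on x axes that differ between panels; filled points have an adjusted p under 0.05. The estimates of the 2 fits lie close together, as for JUNB in BrM2 against LM2 (2.70 and 2.58), while the errors shrink with the block, as for JUND in the same comparison (0.55 and 0.24).

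JUNB, a JUN family member that often opposes JUN in proliferation, had the largest difference of any member. It read 5.31, 6.49 and 3.07 CPM in Par replicates 1, 2 and 3, then 1.84, 1.22 and 1.03 CPM in LM2, and 16.7, 3.31 and 6.85 CPM in BrM2. Every LM2 library was below every library of the other lines, and BrM2 replicate 1 stood far above the other 2 BrM2 libraries. JUNB was 6.52-fold higher in BrM2 than in LM2, a log2 fold change of 2.70 ± 0.59 (SE, n = 3 per line) with an adjusted p of 0.024 in edgeR's quasi-likelihood test. Within replicate numbers the log2 ratio was 3.18, 1.44 and 2.73. Without BrM2 replicate 1 the log2 fold change was 1.90 and still passed, with an edgeR adjusted p of 0.042. The call was lost without LM2 replicate 2 (2.63, edgeR adjusted p = 0.11), without LM2 replicate 3 (2.54, edgeR adjusted p = 0.10) and without BrM2 replicate 3 (2.86, edgeR adjusted p = 0.056). With all 9 libraries and the block, BrM2 exceeded LM2 by 2.58 ± 0.43 (edgeR adjusted p = 0.0011). DESeq2 on all 9 libraries without the block gave an adjusted p of 8.8e-05. Against Par, LM2 differed by -1.86 ± 0.58 with an edgeR adjusted p of 0.094. With the block it differed by -1.90 ± 0.43 with an edgeR adjusted p of 0.0066. BrM2 and Par overlapped, with 0.84 ± 0.55 and an edgeR adjusted p of 0.42, and BrM2 replicate 2 lay within the Par range. JUNB passed the filter on low counts (47.15 normalized counts in at least 1 library) through Par and BrM2, and not through LM2. The JUNB gene has no intron and lies at chr19:12791486-12793315 (GRCh38.p14, + strand), and its exon shares 259 bases (14.2%) with HOOK2 on the opposite strand. HOOK2 had 175 to 300 counts per library. The counted strand is not given in the sources used here, so reads in the shared bases cannot be assigned.

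JUND, the JUN family member that is expressed most steadily in resting cells, read 24, 16.1 and 16.4 CPM in Par, 12.1, 4.29 and 4.91 CPM in LM2, and 35, 15.4 and 9.44 CPM in BrM2. All LM2 libraries lay below all Par libraries, whereas LM2 replicate 1 was above BrM2 replicate 3. In LM2 against Par the log2 fold change was -1.41 ± 0.55, with an edgeR adjusted p of 0.18. With the replicate block it was -1.55 ± 0.24 and passed, with an edgeR adjusted p of 6e-04. JUND was lower in LM2 in all 3 replicate pairs, by -0.99, -1.91 and -1.74 on the log2 scale. BrM2 exceeded LM2 by 1.49 ± 0.55 on the log2 scale (edgeR adjusted p = 0.16), and by 1.45 ± 0.24 with the block (edgeR adjusted p = 0.00091). Between BrM2 and Par the estimate was near 0 and changed sign with the model, at 0.08 ± 0.53 without the block and -0.10 ± 0.23 with it, and the replicate pairs gave 0.55, -0.07 and -0.80. JUND, at chr19:18279694-18281622 (GRCh38.p14, - strand), has no intron either.

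JUN, the founding member of AP-1, was the most abundant of its family and passed in no comparison, with or without the block. It read 56, 84.6 and 56.1 CPM in Par, 61.1, 59.1 and 68.6 CPM in LM2, and 107, 52 and 85.7 CPM in BrM2. The lowest and the highest of the 9 values were both BrM2 libraries. The log2 fold changes were -0.06 ± 0.29 in LM2 and 0.32 ± 0.29 in BrM2 against Par, with edgeR adjusted p-values of 0.95 and 0.59. JUN lies at chr1:58780791-58784047 (GRCh38.p14, - strand).

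FOSB, a FOS protein with strong transactivation, had the lowest mean CPM of the members in Par and BrM2. In LM2 the JUNB mean was lower. FOSB rose in BrM2. It read 0.84, 0.484 and 0.747 CPM in Par, 2.88, 1.63 and 1.07 CPM in LM2, and 3.39, 2.34 and 1.92 CPM in BrM2, from 10 to 19 counts per library in Par, 28 to 58 in LM2 and 40 to 53 in BrM2. Every Par library was below every library of the sub-populations. In BrM2 against Par FOSB was 3.64-fold higher, a log2 fold change of 1.87 ± 0.44 with an edgeR adjusted p of 0.023, and it was higher in 3 of 3 replicate pairs, by 2.01, 2.27 and 1.36. The call was lost without Par replicate 1, 2 or 3 (edgeR adjusted p = 0.053, 0.099 and 0.075), and without BrM2 replicate 1 or 2 (edgeR adjusted p = 0.055 and 0.066), while the log2 fold change stayed between 1.62 and 2.04. With all 9 libraries and the block, BrM2 exceeded Par by 1.84 ± 0.31 (edgeR adjusted p = 0.00079). DESeq2 on all 9 libraries without the block gave an adjusted p of 0.0014. In LM2 against Par the log2 fold change was 1.41 ± 0.44 with an edgeR adjusted p of 0.089. With the block it was 1.34 ± 0.31, with an edgeR adjusted p of 0.0076. FOSB passed the filter on low counts through LM2 and BrM2 libraries only, where it is high, and its highest Par value was 17.7 normalized counts. FOSB lies at chr19:45467996-45475179 (GRCh38.p14, + strand).

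FOS, the classic serum-induced gene, did not pass in any comparison. It read 3.41, 2.37 and 2.71 CPM in Par, 3.72, 2.86 and 2.91 CPM in LM2, and 3.98, 2.12 and 2.01 CPM in BrM2, and the lines overlapped. These values rest on 42 to 76 counts per library. The log2 fold changes were 0.16 ± 0.32 in LM2 against Par and -0.08 ± 0.32 in BrM2 against Par, with edgeR adjusted p-values of 0.88 and 0.93. FOS lies at chr14:75278828-75282230 (GRCh38.p14, + strand).

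FOSL1 read 459, 274 and 245 CPM in Par, 769, 326 and 403 CPM in LM2, and 448, 293 and 269 CPM in BrM2. LM2 replicate 1 was the highest library by a wide margin, and the lines overlapped, while within each replicate number LM2 was above both other lines. The log2 fold change in LM2 against Par was 0.61 ± 0.38 with an edgeR adjusted p of 0.45, and with the block it was 0.58 ± 0.13 with an edgeR adjusted p of 0.0068. BrM2 was lower than LM2 by -0.51 ± 0.13 in the fit with the block (edgeR adjusted p = 0.012), a comparison that gave -0.57 ± 0.38 and an edgeR adjusted p of 0.47 without it. BrM2 and Par differed by 0.05 ± 0.38 (edgeR adjusted p = 0.97). FOSL1 lies at chr11:65892049-65900545 (GRCh38.p14, - strand).

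FOSL2, the other FOS-related antigen, passed in no comparison. It read 399, 291 and 224 CPM in Par, 362, 307 and 256 CPM in LM2, and 439, 315 and 285 CPM in BrM2, and replicate 1 was the highest library of each line. Its log2 fold changes were between 0.02 ± 0.26 in LM2 against Par and 0.19 ± 0.26 in BrM2 against Par, with edgeR adjusted p-values of 0.99 and 0.76, and none of its comparisons passed with the block either. FOSL2 lies at chr2:28392858-28417317 (GRCh38.p14, + strand).

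EGR1 rose in BrM2. It read 6.78, 3.92 and 4.56 CPM in Par, 12, 6.74 and 6.71 CPM in LM2, and 16.7, 9.93 and 10.5 CPM in BrM2, which places every BrM2 library above every Par library. LM2 lay between, and overlapped both. EGR1 was 2.43-fold higher in BrM2 than in Par, a log2 fold change of 1.28 ± 0.35 with an edgeR adjusted p of 0.042. The replicate pairs were close to one another, at 1.30, 1.34 and 1.20 on the log2 scale. The call was lost in 7 of the 9 fits that left out 1 library: without Par replicate 2 or 3 (edgeR adjusted p = 0.17 and 0.14), without LM2 replicate 2 or 3 (0.062 and 0.056), and without BrM2 replicate 1, 2 or 3 (0.10, 0.078 and 0.086). The log2 fold change was between 1.01 and 1.54 in these 9 fits, which had no block. With all 9 libraries and the block it was 1.28 ± 0.15 (edgeR adjusted p = 7.7e-05). DESeq2 on all 9 libraries without the block gave an adjusted p of 0.0061. In LM2 against Par EGR1 gave 0.73 ± 0.35 with an edgeR adjusted p of 0.28, and 0.72 ± 0.15 with the block, with an edgeR adjusted p of 0.0044. BrM2 exceeded LM2 by 0.56 ± 0.15 with the block (edgeR adjusted p = 0.013), against 0.54 ± 0.34 and 0.43 without it. EGR1 lies at chr5:138465479-138469303 (GRCh38.p14, + strand), beside the promoter with 2 CArG boxes printed above.

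IER2 read 21, 21.5 and 16.4 CPM in Par, 22.8, 14 and 15.1 CPM in LM2, and 51, 24 and 32.6 CPM in BrM2. Every BrM2 library was above every library of the other lines, which overlapped with each other. BrM2 exceeded LM2 by 1.05 ± 0.32 on the log2 scale with an edgeR adjusted p of 0.086, and by 1.03 ± 0.19 with the block, with an edgeR adjusted p of 0.0019. Against Par the difference was 0.87 ± 0.32 with an edgeR adjusted p of 0.12, and 0.80 ± 0.19 with the block (edgeR adjusted p = 0.0062). DESeq2 without the block gave adjusted p-values of 0.027 against LM2 and 0.057 against Par. In replicate 2 the log2 ratio to Par was smaller, at 0.16, than in replicates 1 and 3, at 1.28 and 0.99. IER2 lies at chr19:13150411-13154911 (GRCh38.p14, + strand). Its exons share 1608 bases (52.2%) with 2 unnamed antisense genes, of which one had 0 counts in every library and the other was not in the count table.

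MAFF read 54.1, 31.7 and 27.9 CPM in Par, 85.5, 38.1 and 31.5 CPM in LM2, and 85.8, 64.2 and 53.1 CPM in BrM2. Replicate 1 was again the highest in each line, and the lines overlapped. In BrM2 against Par the log2 fold change was 0.84 ± 0.42 with an edgeR adjusted p of 0.26, and 0.88 ± 0.15 with the block, with an edgeR adjusted p of 0.001. BrM2 exceeded LM2 by 0.50 ± 0.15 with the block (edgeR adjusted p = 0.026), against 0.39 ± 0.42 and 0.69 without it, and in replicate 1 this ratio was 0.01 on the log2 scale. LM2 and Par differed by 0.45 ± 0.42 (edgeR adjusted p = 0.67). MAFF lies at chr22:38201994-38216511 (GRCh38.p14, + strand), and 326 bases (5.81%) of its exons overlap PLA2G6 on the opposite strand, which had 38 to 128 counts per library.

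**Figure D3:**
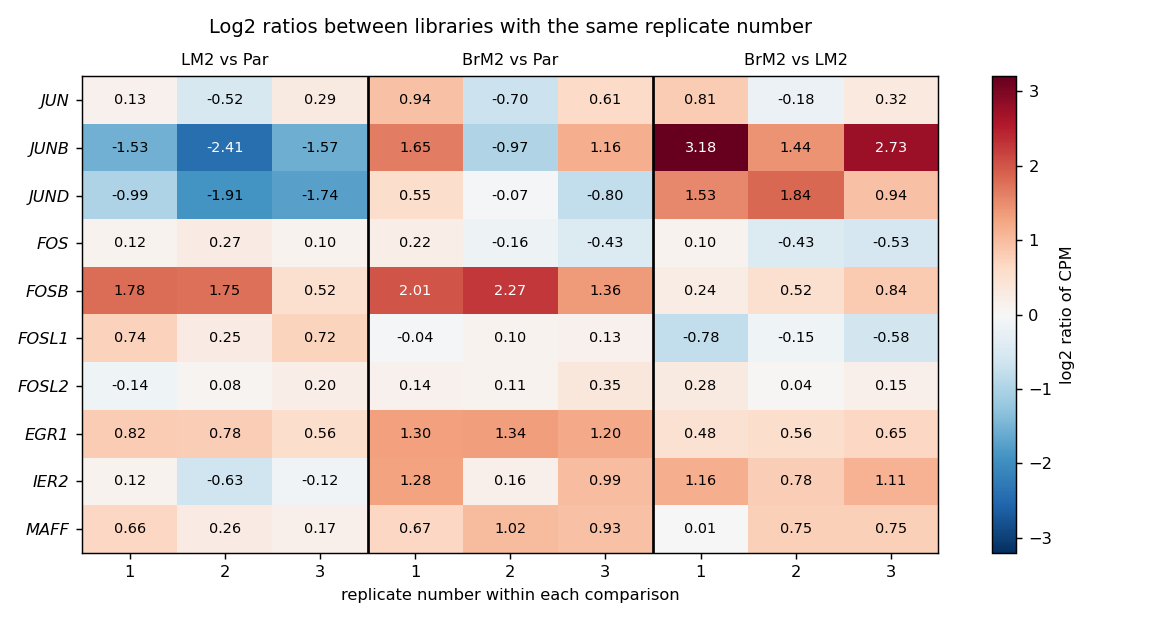
Log2 ratios of CPM between libraries that carry the same replicate number, for each member (rows) and comparison (columns 1 to 3 in each block), with red for higher and blue for lower in the line named first. EGR1 in BrM2 against Par was even across the pairs (1.30, 1.34 and 1.20), whereas JUNB in the same comparison changed sign in replicate 2 (1.65, -0.97 and 1.16).

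Set side by side per kilobase of exon, the order of levels was led by FOSL1, FOSL2 and JUN in each line. In Par they read 173 ± 61.5, 42.5 ± 12.3 and 18.1 ± 4.55 CPM per kilobase (mean ± SD, n = 3), followed by JUND at 9.76 ± 2.32, MAFF at 6.75 ± 2.52, IER2 at 6.38 ± 0.913, JUNB at 2.71 ± 0.949, EGR1 at 1.62 ± 0.478, FOS at 0.888 ± 0.166 and FOSB at 0.124 ± 0.0333. The ranges of JUND and MAFF, MAFF and IER2, and JUNB and EGR1 overlapped in Par, and the other neighbours in the order did not. In LM2 the 3 leading genes read 265 ± 125, 43.1 ± 7.4 and 17.4 ± 1.38 CPM per kilobase. JUNB, at 0.745 ± 0.231 CPM per kilobase, stood below FOS there, at 0.993 ± 0.152, with overlapping ranges, and so did those of neighbours among MAFF, IER2, JUND and EGR1. In BrM2 the leading genes read 178 ± 51.5, 48.4 ± 11.4 and 22.5 ± 7.65 CPM per kilobase, and the ranges of neighbours from JUN down to EGR1 all overlapped. FOS and FOSB, at 0.849 ± 0.347 and 0.459 ± 0.136 CPM per kilobase, closed the order in BrM2.

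Within the JUN family, JUN made up 58.9% ± 8.13 (SD, n = 3) of the CPM per kilobase in Par, 80.2% ± 9.0 in LM2 and 61.6% ± 10.8 in BrM2. In LM2 it ranged from 69.8% to 85.9%, above the Par range of 50.2% to 66.2%, but it overlapped with BrM2, which reached 73.2%. The share of JUNB was 8.67% ± 1.88 in Par, 3.40% ± 0.808 in LM2 and 11.7% ± 4.29 in BrM2, and that of JUND 32.4% ± 8.38, 16.4% ± 8.33 and 26.7% ± 10.0. The larger JUN share in LM2 went with a JUN level within the Par range and lower readings of the other 2 members. The exon length used was 3624 bases for JUN, 1830 for JUNB and 1929 for JUND. The JUN shares are therefore lower here than without division by length. In the FOS family FOSL1 held 79.6% ± 1.67, 84.5% ± 4.53 and 78.1% ± 0.793 in Par, LM2 and BrM2, and FOSL2 held 19.9% ± 1.68, 15% ± 4.43 and 21.4% ± 0.839. FOS and FOSB took under 1% between them. Without division by length FOSL1 and FOSL2 held 51.1% and 48.3% in Par, 59.8% and 39.5% in LM2, and 48.7% and 50.5% in BrM2, and the order within the FOS family in BrM2 was then the other way round.

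**Figure D4:**
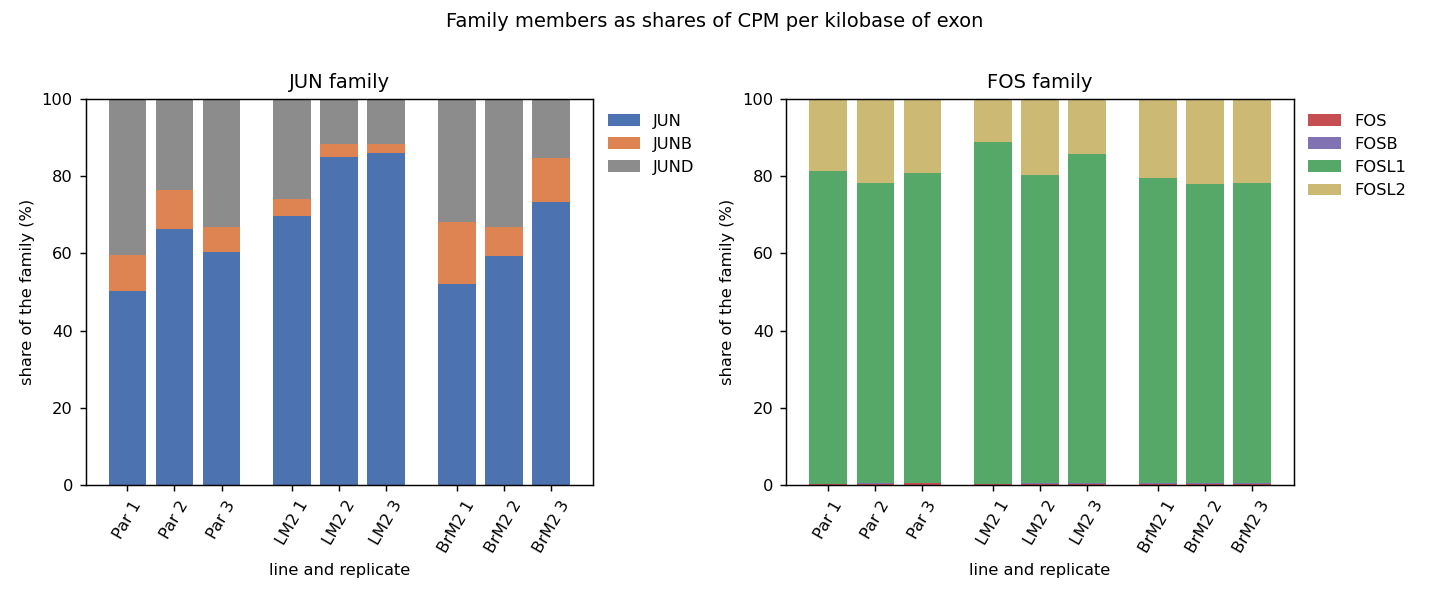
Share of each member in the summed CPM per kilobase of its family, in percent, for each of the 9 libraries. JUN takes 69.8% to 85.9% of the JUN family in LM2 and 50.2% to 66.2% in Par, and FOSL1 with FOSL2 fill nearly all of the FOS family in each library, so that FOS and FOSB are barely visible.

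The genes whose log2 CPM followed a member most closely over the 9 libraries had Pearson correlations between 0.921 and 0.995, given as a description with no test. For JUNB they were FOXK2, ZFPM1 and RHPN1 (0.982, 0.975 and 0.974), for JUND CPT2, TAF8 and IAH1 (0.991, 0.976 and 0.972), and for JUN RILPL1, FAM104A and NPDC1 (0.941, 0.933 and 0.931). FOSB went with LYPD3, MRPL45 and CLP1 (0.969, 0.966 and 0.964), FOS with LGALS9 and VKORC1 (0.928 and 0.921), FOSL1 with DBF4B, NUP188 and CCDC97 (0.991, 0.984 and 0.981), and FOSL2 with KLF16, CHCHD10 and MED11 (0.965, 0.956 and 0.953). EGR1 went with AARS, THOC5 and DFFA (0.988, 0.98 and 0.978), IER2 with KHK, ACSF3 and FOXA2 (0.993, 0.985 and 0.981), and MAFF with ANAPC5, DNAJC11 and IDH3B (0.995, 0.994 and 0.99). No member was among the 3 closest genes of another. The replicate difference described above lies within these 9 libraries and can enter the correlations, although for JUN it was only 0.10 ± 0.21. Its part in them was not tested.

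Other immediate-early genes moved in both directions. Of the 25 tested of 32, 3 were higher and 1 lower in LM2 against Par, 2 higher and 3 lower in BrM2 against Par, and 1 higher and 1 lower in BrM2 against LM2. These 4, 5 and 2 calls stand beside 8.67%, 13.2% and 8.1% of all tested genes. With the block 12, 9 and 14 of the 25 passed, beside 34.5%, 42.7% and 37.5% of all genes. Their medians were 0.02, 0.06 and -0.19 on the log2 scale, beside 0.014, -0.02 and -0.029 for all tested genes. DUSP1, a phosphatase that switches off MAP kinases, rose from 20.3 to 27.1 CPM in Par to 133 to 343 CPM in LM2 and 81.6 to 150 CPM in BrM2. Its log2 fold changes were 3.23 ± 0.41 and 2.23 ± 0.40, with edgeR adjusted p-values of 0.0016 and 0.0062. NR4A1, an orphan nuclear receptor, rose in LM2 by 2.49 ± 0.52 (edgeR adjusted p = 0.019), from 0.473 to 0.747 CPM to 1.99 to 5.66 CPM, while BrM2 read 0.618 to 1.84 CPM. NR4A1 passed the filter on low counts through LM2 only, the line where it is high, so that its being tested depended on this difference. KLF10, a TGF-beta-induced zinc finger factor, rose in LM2 by 0.59 ± 0.15, and ZFP36L2, an RNA-binding protein of AU-rich messages, fell by 0.65 ± 0.17 on the log2 scale, with edgeR adjusted p-values of 0.044 and 0.046. In BrM2 against Par CCN2, a matricellular protein, rose by 1.24 ± 0.21, RHOB, a small GTPase, had a log2 fold change of -1.52 ± 0.34, and NFIL3, a bZIP repressor, one of -0.84 ± 0.20, with edgeR adjusted p-values of 0.0049, 0.019 and 0.024. Between the sub-populations ZFP36L2 was higher (0.87 ± 0.17) and RHOB lower (-1.60 ± 0.34) in BrM2, with edgeR adjusted p-values of 0.013 and 0.022. EGR2, EGR3, EGR4, NR4A3, DUSP2, BTG2 and ARC had too few counts to be tested.

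Among other bZIP factors, some of which can pair with JUN, FOS or MAF proteins, 28 of 33 were tested. Of these, 1, 3 and 1 passed in LM2 against Par, BrM2 against Par and BrM2 against LM2. NFIL3 is in this list and in that of the other immediate-early genes, so its call in BrM2 against Par counts in both. With the block 11, 12 and 7 of the 28 passed. The shares of all tested genes were 8.67%, 13.2% and 8.1% without and 34.5%, 42.7% and 37.5% with the block. BATF, which pairs with JUN proteins, was lower in both sub-populations, by -1.23 ± 0.32 in LM2 and -1.20 ± 0.33 in BrM2 (edgeR adjusted p = 0.048 and 0.042), from 17 to 54 counts per library. It passed the filter on low counts through Par only, the line where it is high. CEBPD, a factor of the acute phase, was lower in BrM2 by -2.49 ± 0.69 (edgeR adjusted p = 0.045), and had only 4 to 15 counts in the BrM2 libraries, so that it passed the filter through Par and LM2. NFE2L3, a CNC-type partner of small MAF proteins, was higher in BrM2 than in LM2 by 1.02 ± 0.21 (edgeR adjusted p = 0.018), at 155 to 232 against 80.1 to 110 CPM. ATF4, the effector of the integrated stress response, read 225 to 333 CPM in Par and 406 to 825 CPM in LM2, a log2 difference of 1.09 ± 0.31 that did not pass in edgeR without the block (adjusted p = 0.069) but passed with it (0.00012) and in DESeq2 without the block (0.016). MAFK, a second small MAF protein, read 9.16 to 30 CPM in Par, 3.14 to 6.80 CPM in LM2 and 6.89 to 27.9 CPM in BrM2. Its log2 differences of -1.78 ± 0.60 in LM2 against Par and 1.60 ± 0.60 in BrM2 against LM2 passed in edgeR with the block (adjusted p = 0.011 and 0.018) and not without it (0.12 and 0.17). DESeq2 without the block gave adjusted p-values of 0.031 and 0.052. CREM in BrM2 against Par (0.56 ± 0.17) and NFE2L1 in BrM2 against LM2 (0.62 ± 0.18) had edgeR adjusted p-values of 0.069 and 0.076, and 0.0055 and 0.0014 with the block. In DESeq2 without the block they passed (adjusted p = 0.0014 and 0.025).

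The kinases, ternary complex factors and ubiquitin ligase parts that act upstream of AP-1 were followed as a further list. Of the 27 tested of 28, 0, 1 and 1 passed in the 3 comparisons in edgeR, with 3, 2 and 5 at an unadjusted p under 0.05. DESeq2 called 0, 2 and 3, and the edgeR fit with the block 7, 9 and 9, where 34.5%, 42.7% and 37.5% of all tested genes passed, against 8.67%, 13.2% and 8.1% without the block. MEF2C, a MADS-box factor that acts on the JUN promoter, was the gene that passed. It read 2.99 to 4.84 CPM in Par, 1.74 to 2.82 CPM in LM2 and 10 to 20.4 CPM in BrM2, a log2 fold change of 1.87 ± 0.33 against Par and 2.76 ± 0.35 against LM2, with edgeR adjusted p-values of 0.0064 and 0.0016. COP1 and DET1, parts of a ubiquitin ligase that degrades JUN protein, differed between BrM2 and LM2 by -0.55 ± 0.16 and -1.89 ± 0.51, with edgeR adjusted p-values of 0.071 and 0.056 without and 0.0036 and 0.0027 with the block. In DESeq2 without the block both passed (adjusted p = 0.00025 and 0.0085). DET1 had only 4 to 67 counts per library and passed the filter on low counts through LM2 only, the line where it is high. MAPK8, which encodes the JUN kinase JNK1, read 52.5 to 74.1 CPM in Par, 69.1 to 127 CPM in LM2 and 69.2 to 129 CPM in BrM2, with edgeR adjusted p-values of 0.24 and 0.21 against Par that became 0.0027 and 0.0022 with the block. ELK1 in BrM2 against Par (-0.93 ± 0.42), RPS6KA3 in LM2 against Par (-0.93 ± 0.46) and MEF2A in BrM2 against LM2 (-0.86 ± 0.37) likewise passed in edgeR with the block, at adjusted p-values of 2e-04, 0.00028 and 0.00065, and not without it, at 0.21, 0.31 and 0.23.

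Genes known as AP-1 targets had the widest range of log2 fold changes among the 4 lists, which were chosen with earlier results of these data known. Of the 25 tested of 30, 5 were higher and 2 lower in LM2 against Par, 6 higher and 4 lower in BrM2 against Par, and 3 higher and 3 lower in BrM2 against LM2. These 7, 10 and 6 calls stand beside 8.67%, 13.2% and 8.1% of all tested genes. With the block 13, 18 and 17 of the 25 passed, beside 34.5%, 42.7% and 37.5% of all genes. The medians were 0.24, 0.30 and -0.06 on the log2 scale. MMP1, interstitial collagenase, read 1.93 to 3.57 CPM in Par, 189 to 274 CPM in LM2 and 438 to 757 CPM in BrM2, which is a rise of 6.33 ± 0.36 and 7.70 ± 0.38 on the log2 scale (edgeR adjusted p = 6e-05 and 2.5e-05). MMP3, stromelysin 1, had 1 count in all Par libraries together and 153 in LM2, a ratio per normalized library size of 141 with an exact 95% counting interval of 24.9 to 5610, and 129 in BrM2, a ratio of 147 with an interval of 25.9 to 5850. IL1B, an inflammatory cytokine, read 0.242 to 0.55 CPM in Par, 24.3 to 39.4 CPM in LM2 and 3.36 to 7.30 CPM in BrM2. It rose over Par in both sub-populations, by 6.47 ± 0.47 in LM2 and 3.88 ± 0.44 in BrM2 on the log2 scale (edgeR adjusted p = 0.00012 and 0.00061), and BrM2 was lower than LM2 by -2.58 ± 0.37 (edgeR adjusted p = 0.0033). IL1B and MMP3 passed the filter on low counts through LM2 and BrM2 only, the lines where they are high, and CCL2 passed it through Par and BrM2. CCL2, a monocyte chemokine, went in opposite directions: LM2 had 3 counts in each library against 129 in the 3 Par libraries, a ratio of 15.6 in favour of Par with an interval of 7.94 to 34.8, while BrM2 rose over Par by 4.64 ± 0.27 (edgeR adjusted p = 3.6e-05). BrM2 over LM2 gave a ratio of 403 with an interval of 212 to 882. These intervals cover counting error only. AREG, an EGF receptor ligand, was lower in both sub-populations, by -3.70 ± 0.24 and -4.17 ± 0.25 (edgeR adjusted p = 8.5e-05 and 3.9e-05), at 58.6 to 70.7 CPM in Par, 3.91 to 6.15 CPM in LM2 and 3.13 to 3.93 CPM in BrM2. EREG, a related ligand, rose in LM2 against Par by 1.34 ± 0.29 (edgeR adjusted p = 0.023). In BrM2 it differed from Par by -0.10 ± 0.29 (edgeR adjusted p = 0.90), and it was lower than in LM2 by -1.44 ± 0.29 (edgeR adjusted p = 0.017). FN1, fibronectin, read 275 to 307 CPM in BrM2 and 1120 to 1150 CPM in LM2, a log2 difference of -1.96 ± 0.17 (edgeR adjusted p = 0.00027). MMP9, MMP10, MMP13, IL1A and IVL had too few counts to be tested. The part of the members in these differences was not tested.

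**Figure D5:**
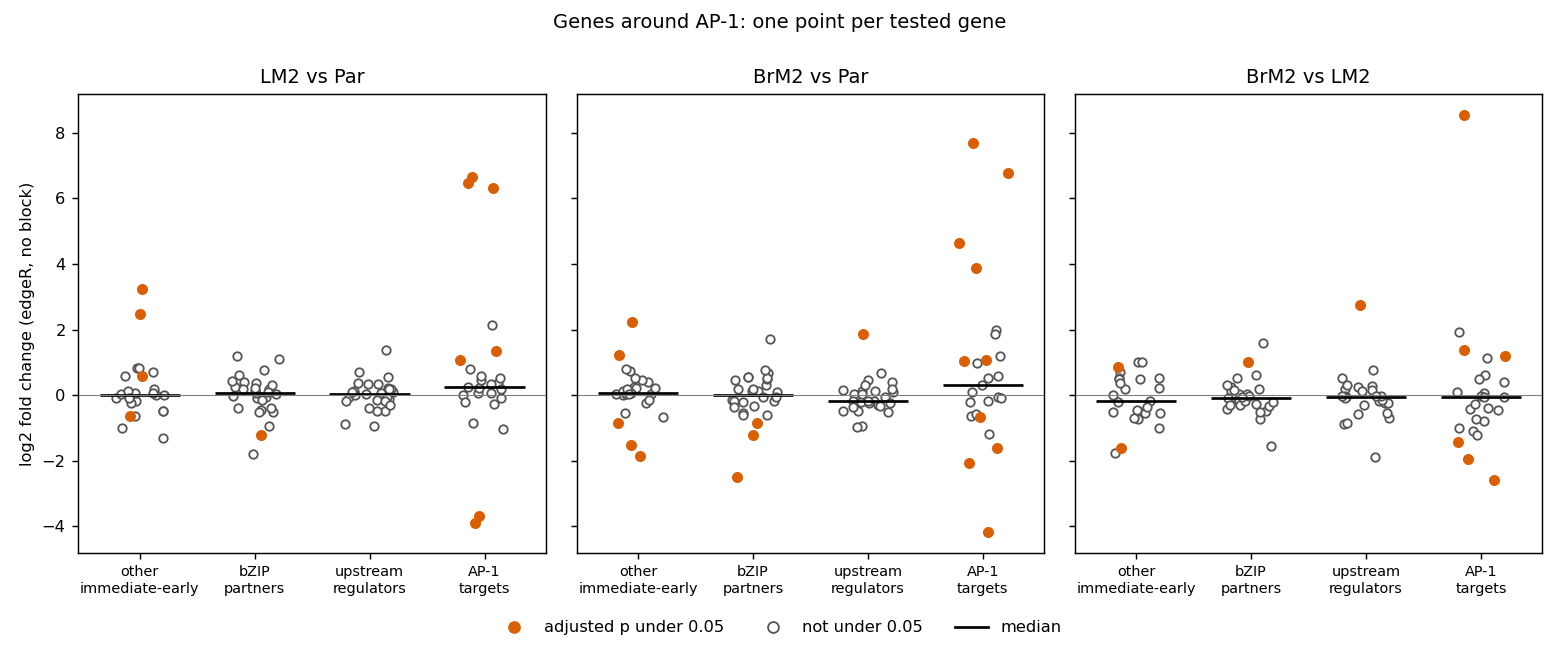
Log2 fold change of each tested gene of the 4 lists in the 3 comparisons, from edgeR on the line alone, with orange points for an adjusted p under 0.05 and a line at the median of each list. The AP-1 targets spread from -4.17 to 7.70 in BrM2 against Par while their median was 0.30; the fitted values of MMP3 against Par and of CCL2 against LM2 depend on counts of 3 or fewer in one line.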

How the data were processed

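RNA-seq of Par, LM2 and BrM2 cells (3 libraries each) was analysed from the deposited table of raw read counts per gene, which holds no normalized values. The authors made stranded mRNA libraries and counted paired-end reads per gene with STAR on hg38. Per the submitters' processing notes, CASAVA 1.8.2 and STAR 2.7.0 were used. The counted strand is not given in the sources used here. A second table holds the authors' own DESeq2 comparisons (log2 fold changes and adjusted p-values) and was not used.

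Of 58887 rows, 3 repeated identifiers with the same counts were kept once. Genes were kept after the HTSFilter method (100 thresholds from 1 to 200 normalized counts, loess span 0.3, threshold used 47.15), which left 13018 genes with 99.64% to 99.77% of the counts. edgeR 4.0.16 (R 4.3.3) was used with TMM normalization and the 2-sided quasi-likelihood test on all 9 libraries with the line as the group, as in the study's design, with Benjamini-Hochberg adjustment over all tested genes and a threshold of 0.05. A fold change is on the log2 scale and its SE follows from the F statistic. The replicate numbers come from the labels. Same-numbered libraries of different lines correlated in their deviations from the line means at 0.23 to 0.90 in all 9 pairs (other numbers -0.88 to 0.80). The replicate number was therefore used as a block in an alternative fit and to form the replicate pairs. The main fit used the line alone and no pairing. With the block the common dispersion fell to 0.021, from 0.11.

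Alternatives were the replicate block, DESeq2 1.42.0, RLE size factors, no filter, filterByExpr, leaving out each library or replicate number, and, chosen after seeing the data, DESeq2 with the block. Scripts were tested on simulated data. The 10 members, the 4 gene lists and the rule for named genes (all members, up to 4 tested genes with the smallest p per list and comparison, and the 3 genes most correlated with each member, on log2 CPM with a prior count of 2) were chosen with earlier results of these data known. For 1 gene named by this rule no result is reported here. Coordinates and promoters are from RefSeq on GRCh38.p14. Exon lengths, base composition and overlaps, the last for the members only, are from GENCODE v44 on GRCh37, matched by Ensembl identifier.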

Additional observations from a re-analysis of the deposited data

Results flagged for a closer look

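JUNB differed between the sub-populations, with a log2 fold change of BrM2 against LM2 of 2.70 ± 0.59. The adjusted p was 0.024 in edgeR's quasi-likelihood test, and BrM2 was higher in 3 of 3 replicate pairs. The Par level cancels in this contrast, which equals the difference of the changes from Par. Without the block neither of those changes passed (edgeR adjusted p = 0.094 in LM2 and 0.42 in BrM2), and with it only LM2 did (0.0066). The call between the sub-populations held with the block on all 9 libraries (edgeR adjusted p = 0.0011). It was lost in 3 of the 9 fits that left out 1 library and had no block. JUNB passed the filter on low counts through Par and BrM2, and not through LM2. LM2 read below Par in 3 of 3 pairs, and BrM2 above it in 2 of 3. BrM2 replicate 1, at 16.7 CPM, stood apart from the other BrM2 libraries, at 3.31 and 6.85 CPM.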

How the results depend on the processing

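All values below are from edgeR or DESeq2 fits on the same counts, and the cause of a change was not tested. Some settings use fewer libraries. In the fits that kept all 9 libraries, the log2 fold changes of the members kept their direction in all comparisons but 1: JUND in BrM2 against Par, at 0.08, became -0.10 with the replicate block and -0.07 in DESeq2 with the block. No member call was lost in those fits. The block added the calls named beside each member and changed no other call of a member. Members called, in the order LM2 against Par, BrM2 against Par and BrM2 against LM2, were 0, 2 and 1 without the block, 5, 4 and 6 with it, and 6, 4 and 6 in DESeq2 with the block. DESeq2 without the block gave 2, 2 and 2, as did the fit with no filter on low counts. For the other immediate-early genes, in the same order, 4, 5 and 2 became 12, 9 and 14 with the block, 12, 10 and 14 in DESeq2 with the block, and 7, 5 and 6 in DESeq2. For the bZIP factors 1, 3 and 1 became 11, 12 and 7 with the block, 10, 12 and 7 in DESeq2 with the block, 3, 5 and 3 in DESeq2, and 2 in LM2 against Par and 2 in BrM2 against LM2 with no filter. With RLE size factors the bZIP calls were 0 in LM2 against Par and 1 in BrM2 against Par. For the upstream regulators 0, 1 and 1 became 7, 9 and 9 with the block, 9, 9 and 9 in DESeq2 with the block, and 0, 2 and 3 in DESeq2, and BrM2 against LM2 gave 2 with no filter and 2 with filterByExpr. For the AP-1 targets 7, 10 and 6 became 13, 18 and 17 with the block, and 14, 19 and 17 in DESeq2 with the block, and BrM2 against LM2 gave 10 in DESeq2 and 10 with no filter.

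Leaving out single libraries or a replicate number in all lines moved the counts most. The lowest and highest counts of members were 0 and 4 in LM2 against Par, 0 and 4 in BrM2 against Par, and 0 and 5 in BrM2 against LM2. In the same order, the counts ran from 0 to 11, 0 to 7 and 0 to 13 for the other immediate-early genes, 0 to 9, 0 to 10 and 0 to 6 for the bZIP factors, 0 to 8, 0 to 8 and 0 to 11 for the upstream regulators, and 4 to 12, 3 to 18 and 1 to 14 for the AP-1 targets. The highest counts of members, 4, 4 and 5, came without replicate 1 in any line, and without replicate 2 or replicate 3 no member passed in any comparison. Estimates near 0 changed sign in these fits. In LM2 against Par JUN ran from -0.18 to 0.23, FOSL2 from -0.16 to 0.26, IER2 from -0.44 to 0.04 and MAFF from -0.12 to 0.79. In BrM2 against Par JUN ran from -0.01 to 0.80, JUND from -0.60 to 0.42, FOS from -0.45 to 0.13, FOSL1 from -0.22 to 0.38 and FOSL2 from -0.02 to 0.43. In BrM2 against LM2 FOSL2 ran from -0.04 to 0.30. Counts limit FOSB, with 10 to 58 per library, and FOS, with 42 to 76.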
